A study of Homo sapiens with 6 samples.

Results

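The genes of the proteasome were followed in AC16 cells, a human cardiomyocyte line, after high potassium. They were chosen by symbol: every row of the deposited gene table whose symbol was PSM followed by a letter from A to G and a digit, which gave 49 of the 19386 genes listed. Of these rows, 19 are subunits of the core particle (PSMA and PSMB), 20 belong to its cap and the cap's chaperones (PSMC and PSMD), 5 are activators or an inhibitor (PSME and PSMF) and 4 are chaperones of core assembly (PSMG). The remaining row, PSMC3IP, is a meiotic recombination protein and not a proteasome subunit. It matched by symbol only and is placed in no role group below.

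The proteasome is the cell's main protease for proteins tagged with ubiquitin. Proteins enter a barrel, the core particle, whose inner beta rings cut them into peptides and whose outer alpha rings form the gate. A regulatory cap binds the ubiquitin tag, removes it and unfolds the protein with a ring of ATPases, while other activator rings open the gate without ubiquitin. In heart muscle the proteasome is known for the turnover of contractile proteins, and part of the peptides it makes feed class I antigen presentation.

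The samples were 3 libraries of untreated wild-type AC16 cells (control) and 3 libraries of wild-type AC16 cells given 26 mM potassium chloride (KCl), all taken at 16 h. Messenger RNA was sequenced, and the question that the design poses is how the raised potassium changed transcript levels. The labels describe the cells as cardiomyocytes from heart, and AC16 is an established hybrid line. The labels name no separate cultures within a group, so the p-values below stand for variation among these 6 libraries, and that variation may be technical only.

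Each library held 18601977 to 19286588 estimated reads, and replicates differed from each other by more than sampling noise (chi-square per gene 3.05 to 4.53). Of 14 cardiomyocyte markers, 13 had a mean TPM (a level per transcript length, scaled to the library) under 1, and TNNT2, MYL7, NPPA and NKX2-5 had no read in any library, while GATA4 was detected (30.2 TPM in control and 28.96 TPM in KCl). Over all genes tested, 20.1% were called higher after KCl and 18.0% lower. Of 10 fibroblast markers 9 were higher after KCl and 0 lower, with a summed TPM of 2809 to 3038 in control and 2962 to 3150 in KCl. Of 8 leukocyte markers 5 could be tested, with 1 higher and 1 lower. The summed TPM went from 171.9–187 in control to 125.8–134.6 in KCl. Most of that sum was CD68, the lower gene, with a mean TPM of 176.6 in control and 124.3 in KCl. The higher gene was CD14, at 2.2 and 4.2 TPM, and PTPRC, at 0.78 and 1.0 TPM, did not pass the test. Of 6 endothelium markers 2 could be tested, with 1 higher, at a summed TPM of 4.31 to 5.09 in control and 5.5 to 5.91 in KCl. The part of these shifts in the results below was not tested, and in bulk RNA fewer cells of a type and less RNA per cell cannot be told apart.

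Proteasome transcripts were well expressed in these cells. Over the 47 rows that passed the filter on low counts, mean TPM ran from 34.9 for PSME4 to 497.6 for PSMA7. Within the alpha ring PSMA7 was highest at 505.5 ± 24.4 in control and 489.6 ± 22.5 in KCl (SD, n = 3), and PSMA5 lowest at 50.9 and 47.7. PSMB6 led the constitutive beta ring with 494.7 in control and 475.3 in KCl, and PSMB2 was its lowest member with 106.8 and 100.3. The inducible beta subunits ran from 40.7 for PSMB9 to 103.6 for PSMB8 as means over all libraries. PSMB8 was thus level with PSMB2, whose mean over all libraries was also 103.6. Among the ATPases PSMC5 had the highest mean TPM, 252.2, and PSMC6 the lowest, 48.8. Among the other cap subunits the ends were PSMD8 at 471.4 and PSMD12 at 47.1. A ring holds each of its subunits in equal copies, so these spreads are of messenger RNA only.

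**Figure D1:**
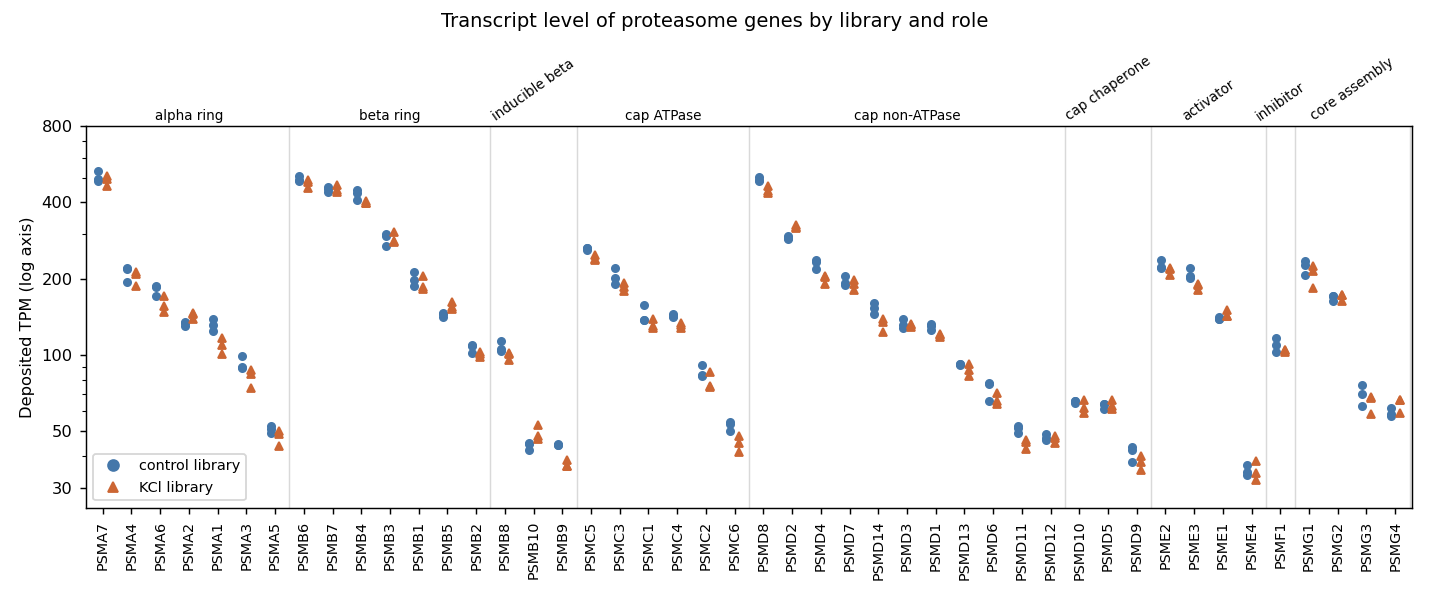
Deposited TPM (log axis) of the 46 proteasome genes tested, by role and, within a role, by mean level; blue circles are the 3 control libraries and orange triangles the 3 KCl libraries. Levels run from 34.9 (PSME4) to 497.6 (PSMA7) as means over the 6 libraries, and for most genes the symbols of the groups lie on or beside each other.

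Both tissue-restricted members were missing or nearly so. PSMA8, the alpha subunit of the testis proteasome, had 0 reads in all 6 libraries, which allows up to 3 reads, or 0.156 to 0.161 CPM (reads scaled to the size of the library), in each. PSMB11, the catalytic subunit of the thymus proteasome, had 0, 1 and 0 reads in control and 0, 0 and 2 in KCl. Neither passed the filter, and neither was tested.

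After KCl, 3 of the 47 tested members were higher and 8 were lower, and the changes were small. The higher ones were PSMD2, PSMB5 and PSMA2. The lower ones were PSMA1, PSMA6, PSMB9, PSMC6, PSMD4, PSMD11, PSMD14 and PSME3. Calls are at an adjusted p under 0.05 in edgeR's quasi-likelihood test, with Benjamini-Hochberg adjustment over all 13044 genes tested. At this threshold 20.1% of all genes were called higher and 18.0% lower, against 6.383% and 17.02% of the members, so the share of lower members was near the background. An unadjusted p under 0.05 was reached by 14 members. The median log2 fold change was -0.055 over the members and -0.005 over all genes tested, and 34 of the 47 members (72.3%) were below 0, against 50.8% of all genes. In size, the median change of a member was 0.085 on the log2 scale (0.16 over all genes), and no member moved by more than 0.24, while 248 genes of the table moved by at least 1.

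The libraries themselves differed in their proteasome transcripts. Control replicate 2 was the highest of the controls for 32 of the 47 members, and KCl replicate 1 was the highest of the KCl libraries for 30. Without control replicate 2 the members' median log2 fold change was -0.03, and without KCl replicate 3 it was -0.02. Leaving out 1 library moved the number of lower members from 8 to 5 (control replicate 1), 4 (control replicate 2), 5 (KCl replicate 1) or 3 (KCl replicate 3), and the number of higher members from 3 to 1 without control replicate 1. Calls over all genes fell too. The share called lower went from 17.95% to 14.47%, 15.19%, 14.83% and 14.21% in the same order. The share called higher was 16.53% without control replicate 1, against 20.09%. PSMA1 and PSMD2 alone kept their call under all 18 alternatives. CPM here are scaled by TMM, which assumes that most genes keep their level; scaled by library totals instead, 1 member was higher and 19 lower, so the higher share of the calls went from 27.3% to 5%, while over all genes it went from 52.8% to 35.3%.

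**Figure D2:**
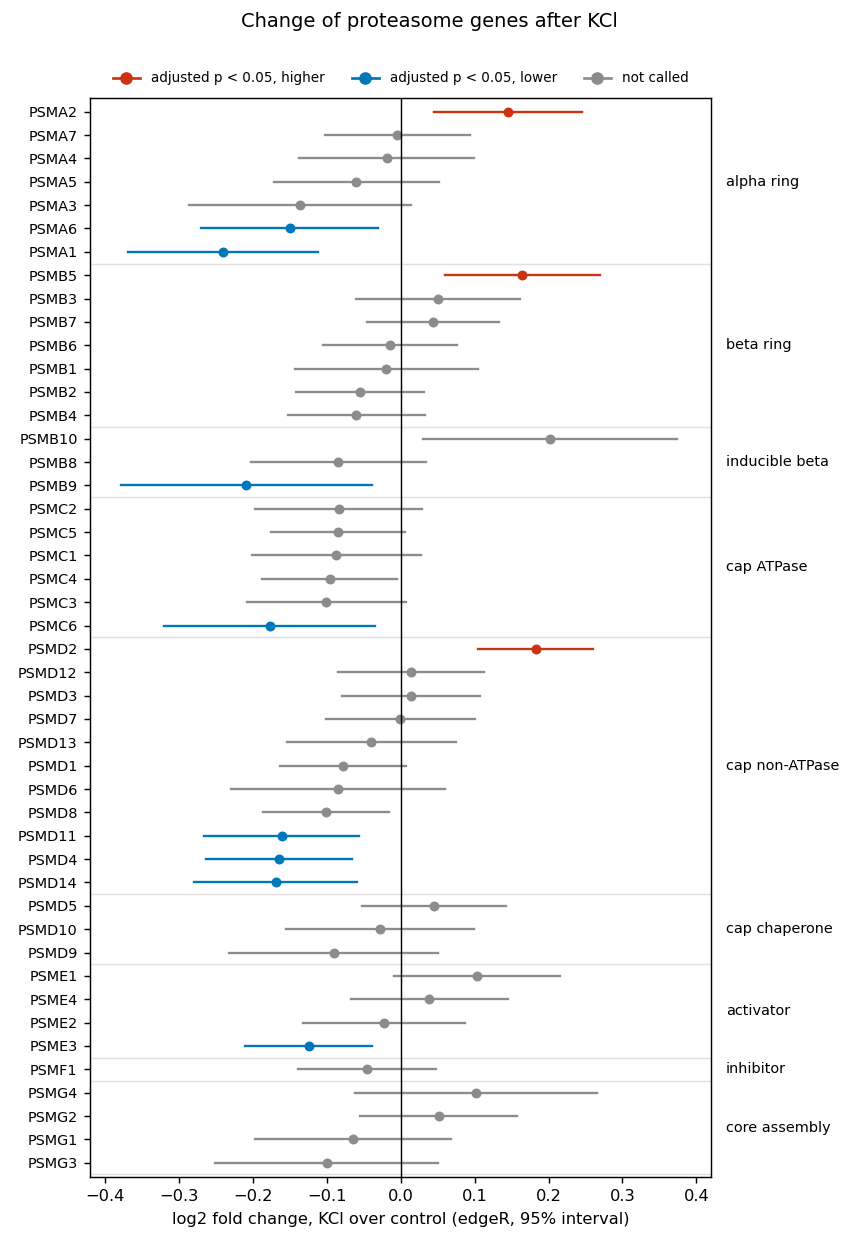
log2 fold change of KCl over control for the 46 proteasome genes tested, with its 95% interval from edgeR, ordered by role and size; red marks genes called higher, blue genes called lower and grey the rest. The points lie between -0.24 (PSMA1) and 0.20 (PSMB10), and all 6 ATPases lie below 0.

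The core particle held 2 higher and 3 lower genes among 17 tested, with a median log2 fold change of -0.02. These are 11.76% and 17.65%, beside 20.1% and 18.0% of all genes tested. In the alpha ring, which gates the barrel, 1 of 7 was higher and 2 were lower. PSMA1 (chr11:14504874-14643635, minus strand; coordinates of genes are GENCODE 29 on GRCh38) had 71.6, 76.3 and 67.1 CPM in the control libraries and 66.0, 60.1 and 55.9 CPM in the KCl libraries. All KCl libraries were below all controls, and the gene fell by 15.4% (log2 fold change -0.24 ± 0.06 SE, edgeR adjusted p = 0.00346, from 0.000229 to 0.0384 over the alternatives). PSMA6 (chr14:35278633-35317493, plus strand) was at 79.3, 87.7 and 84.8 CPM in control and 82.5, 73.7 and 70.6 CPM in KCl. KCl replicate 1 lay inside the control range, and the log2 fold change was -0.15 ± 0.06 (edgeR adjusted p = 0.0430, from 0.00445 to 0.223 over the alternatives). Its call was lost with DESeq2, without robust estimation, and without control replicate 2 or 3 or KCl replicate 2 or 3. The annotation names 4 pseudogenes after PSMA6, so its reads could be shared with copies. PSMA1 and PSMA6 each overlap a protein-coding gene on their own strand, AC018523.2 and AL121594.1, and reads could be shared there too.

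PSMA2 (chr7:42916857-42932223, minus strand), another gate subunit, was at 84.0, 87.6 and 85.9 CPM in control and 98.3, 94.5 and 92.0 CPM in KCl. The groups did not overlap, and it rose by 10.6% (log2 fold change 0.15 ± 0.05, edgeR adjusted p = 0.0207, from 0.0209 to 0.181 over the alternatives). That call was lost without control replicate 1 or KCl replicate 1 and with library totals, upper quartile scaling or TPM and FPKM values. The annotation names 3 pseudogenes after PSMA2. The gene overlaps the protein-coding AC010132.3 on its own strand and MRPL32 on the other. The other 4 alpha genes had log2 fold changes from -0.14 (PSMA3) to -0.01 (PSMA7), and none of them passed the test.

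The cutting sites of the core lie in the beta ring. PSMB5, the chymotrypsin-like subunit (chr14:23016543-23035230, minus strand), was at 78.3, 82.6 and 80.9 CPM in control and 90.2, 86.3 and 94.5 CPM in KCl. All KCl libraries were above all controls, and it rose by 12.1% (log2 fold change 0.16 ± 0.05, edgeR adjusted p = 0.0123, from 0.00678 to 0.155 over the alternatives). The call was lost without control replicate 1 or KCl replicate 3 and under the same scalings as that of PSMA2. PSMB6, the caspase-like subunit, had 182.9, 177.6 and 174.2 CPM in control and 183.7, 167.5 and 178.2 CPM in KCl, with a 95% interval of its log2 fold change from -0.11 to 0.08. PSMB7, the trypsin-like subunit, had 200.3, 199.8 and 190.0 CPM in control and 212.7, 198.1 and 197.6 CPM in KCl, with an interval from -0.05 to 0.13. Both intervals end below the 0.16 fitted for PSMB5 but overlap its own interval, from 0.06 to 0.27. The differences between these genes were not tested. The 4 beta subunits that do not cut, PSMB1, PSMB2, PSMB3 and PSMB4, did not pass the test either (edgeR adjusted p from 0.311 to 0.826).

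Each cutting subunit has a counterpart that takes its place in the immunoproteasome. PSMB9, which replaces PSMB6 (chr6:32844136-32859585, plus strand), was at 19.8, 20.2 and 19.9 CPM in control and 18.0, 16.8 and 17.0 CPM in KCl. The groups did not overlap, and PSMB9 fell by 13.5% (log2 fold change -0.21 ± 0.08, edgeR adjusted p = 0.0476). That p lies just inside the threshold and ran from 0.00214 to 0.12 over the alternatives, with the call lost when any 1 library was left out, with no filter on low counts, with a replicate block and with DESeq2. PSMB8, which replaces PSMB5, had 55.8, 56.7 and 60.6 CPM in control and 55.0, 55.2 and 52.9 CPM in KCl; the groups were separate, but the log2 fold change of -0.08 ± 0.06 did not pass (edgeR adjusted p = 0.26). PSMB10, which replaces PSMB7, stood the other way round, with 19.33, 18.4 and 19.1 CPM in control and 23.7, 20.4 and 21.2 CPM in KCl. Its log2 fold change of 0.20 ± 0.08 was the highest of all members and just missed the threshold (edgeR adjusted p = 0.0583, from 0.0384 to 0.273 over the alternatives). The annotated span of PSMB9 overlaps the start of PSMB8 and holds the whole of TAP1, both on the other strand. Reads there could be split between PSMB9 and either of them.

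Each immunoproteasome gene was set against its constitutive counterpart within each library. The ratios differed in direction, and none passed its test. The ratio of PSMB8 to PSMB5 in TPM was 0.737, 0.718 and 0.784 in control and 0.654, 0.669 and 0.589 in KCl. For PSMB9 to PSMB6 the ratio was 0.0866, 0.0909 and 0.0910 in control and 0.0784, 0.0804 and 0.0761 in KCl. Both were lower in every KCl library than in every control. The group means of the log2 ratio differed by -0.23 and -0.19. PSMB5 itself was called higher (log2 fold change 0.16), while PSMB8 at -0.08 did not pass. PSMB10 to PSMB7 was 0.0975, 0.0931 and 0.101 in control and 0.113, 0.104 and 0.109 in KCl, which is higher in every KCl library (log2 difference 0.16). In the two-sided exact permutation test each of these ratios reached p = 0.1, the smallest p that 3 against 3 libraries can give, and 0.1 after adjustment over the 4 ratios tested, so none passed.

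**Figure D3:**
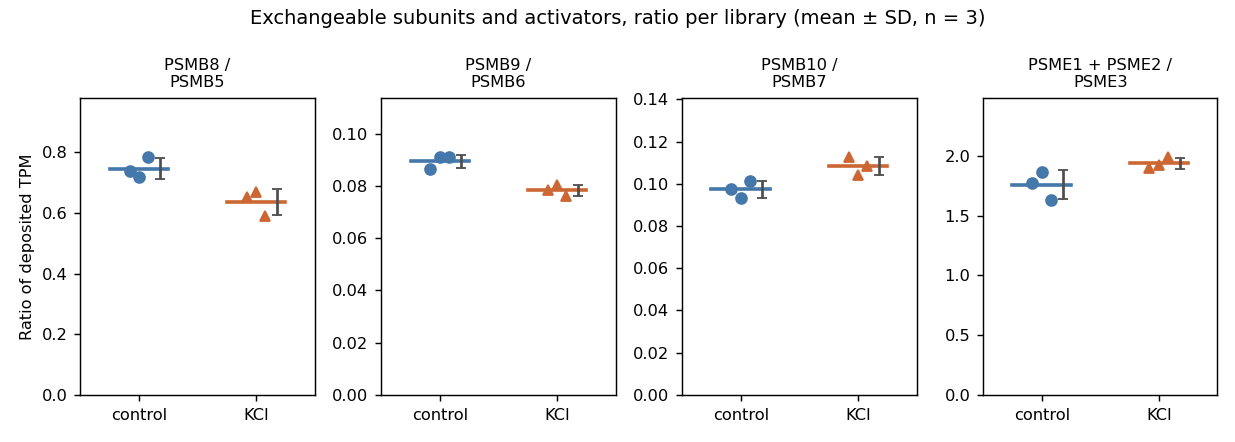
Ratio of deposited TPM in each library for the inducible over the constitutive catalytic subunits and for PSME1 plus PSME2 over PSME3; circles are control and triangles KCl libraries, horizontal lines are group means and grey bars the SD (n = 3). PSMB8 over PSMB5 and PSMB9 over PSMB6 are lower in KCl, PSMB10 over PSMB7 and the activator ratio are higher, with no overlap between groups in any panel.

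The cap that reads the ubiquitin tag held 1 higher and 4 lower genes among 20 tested, with a median log2 fold change of -0.08. These are 5% and 20%, beside 20.1% and 18.0% of all genes tested. PSMD2, the large base subunit on which shuttle factors dock (chr3:184298709-184309054, plus strand), was at 378.2, 390.9 and 388.7 CPM in control and 444.0, 436.6 and 433.5 CPM in KCl. Every KCl library lay above every control by more than the spread in either group, and PSMD2 rose by 13.5% (log2 fold change 0.18 ± 0.04, edgeR adjusted p = 0.00042). It had the smallest p of all members, and the adjusted p ran from 1.1e-05 to 0.0247 over the alternatives.

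PSMD4, a ubiquitin receptor of the cap (chr1:151254703-151267479, plus strand), moved the other way. It was at 127.2, 139.9 and 134.5 CPM in control and 123.1, 120.9 and 114.2 CPM in KCl, with no overlap, and fell by 10.8% (log2 fold change -0.17 ± 0.05, edgeR adjusted p = 0.00806). The call was lost only without KCl replicate 3 (from 0.000454 to 0.0582 over the alternatives). PSMD14, the deubiquitinase that cuts the tag off (chr2:161308038-161411717, plus strand), was at 116.3, 123.9 and 109.8 CPM in control and 110.4, 104.2 and 96.7 CPM in KCl. KCl replicate 1 lay just above control replicate 3, and the log2 fold change was -0.17 ± 0.05 (edgeR adjusted p = 0.0145, from 0.00112 to 0.115 over the alternatives). Its call was lost without control replicate 2 or KCl replicate 3. PSMD11, a lid subunit that clamps the cap to the core (chr17:32444261-32483318, plus strand), was at 93.7, 92.7 and 86.5 CPM in control and 78.6, 82.6 and 83.0 CPM in KCl. The groups were separate, and it fell by 10.6% (log2 fold change -0.16 ± 0.05, edgeR adjusted p = 0.0140, from 0.00103 to 0.0761 over the alternatives), a call lost without control replicate 1 or KCl replicate 1. PSMD11 and PSMD14 each overlap an antisense gene, and no source used here says whether reads were counted by strand.

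The ATPases that unfold the substrate all had lower fitted levels after KCl, with log2 fold changes from -0.18 to -0.08, but only PSMC6 passed the test. PSMC6 (chr14:52707172-52728587, plus strand) was at 38.5, 38.4 and 35.4 CPM in control and 33.6, 34.9 and 30.8 CPM in KCl. The groups did not overlap, and it fell by 11.6% (log2 fold change -0.18 ± 0.07, edgeR adjusted p = 0.0456, from 0.00721 to 0.208 over the alternatives), a call lost with DESeq2 and without control replicate 1, control replicate 2, KCl replicate 1 or KCl replicate 3. PSMC4 had 120.5, 122.2 and 122.8 CPM in control and 112.6, 114.2 and 115.2 CPM in KCl, without overlap and with an edgeR adjusted p of 0.0918. PSMC5, the most abundant of them, had 158.8, 160.0 and 154.5 CPM in control and 155.4, 143.6 and 147.5 CPM in KCl (edgeR adjusted p = 0.136). Summed over the 6 genes, the ATPases took 648.7, 699.2 and 648.7 CPM in control and 637.8, 614.2 and 616.8 CPM in KCl, which do not overlap. The annotation names 13 pseudogenes after PSMC1, whose log2 fold change was -0.09 (edgeR adjusted p = 0.228).

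The other cap subunits were spread to both sides of 0. PSMD8, a lid subunit and the most abundant of the cap by TPM, had 333.7, 346.5 and 326.1 CPM in control and 313.8, 299.8 and 324.7 CPM in KCl. Its groups were separate, with a log2 fold change of -0.10 ± 0.04 that just missed the threshold (edgeR adjusted p = 0.0553). PSMD12, the least abundant, had 92.6, 95.5 and 97.6 CPM in control and 98.7, 96.6 and 93.2 CPM in KCl, with an interval from -0.09 to 0.11 on the log2 scale. The 3 chaperones that build the cap's base did not pass. PSMD5 was at 96.6, 101.7 and 100.03 CPM in control and 100.6, 105.1 and 102.1 CPM in KCl (edgeR adjusted p = 0.48). PSMD9 was at 45.7, 44.97 and 39.4 CPM in control and 38.5, 42.6 and 41.1 CPM in KCl (adjusted p = 0.317). PSMD10, also known as gankyrin, was at 45.3, 45.3 and 44.98 CPM in control and 44.5, 46.4 and 42.0 CPM in KCl (adjusted p = 0.751). In all 3 the groups overlapped.

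**Figure D4:**
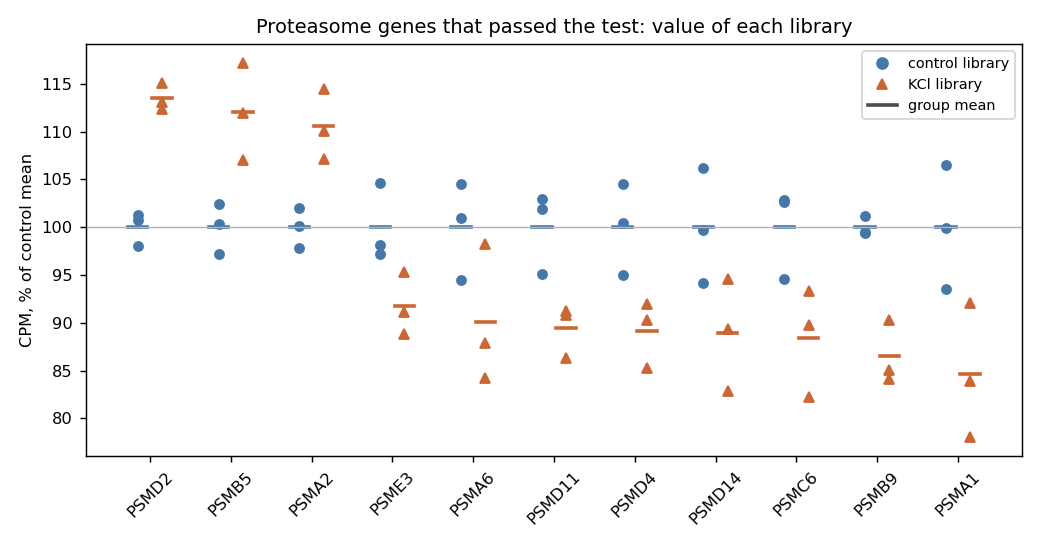
CPM of each library, as a percentage of the control mean, for the 11 proteasome genes that passed the test, ordered from the largest rise to the largest fall; circles are control and triangles KCl libraries, and short lines are group means. In PSMD2, PSMB5 and PSMA2 every triangle lies above every circle, and in PSMA6 and PSMD14 the highest triangle reaches into the circles.

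Of the activators that open the gate, PSME3 fell and the others did not pass the test. PSME3, the nuclear activator (chr17:42824385-42843758, plus strand), was at 318.9, 315.8 and 339.9 CPM in control and 309.6, 295.9 and 288.4 CPM in KCl. The groups did not overlap, and it fell by 8.27% (log2 fold change -0.12 ± 0.04, edgeR adjusted p = 0.0206, from 0.000748 to 0.107 over the alternatives), a call lost without control replicate 3 or KCl replicate 3. PSME1 and PSME2 form the interferon-inducible cytosolic ring. PSME1 was at 61.2, 60.9 and 59.6 CPM in control and 64.8, 62.8 and 67.5 CPM in KCl, higher in every KCl library but with an edgeR adjusted p of 0.141. PSME2 was at 78.2, 84.1 and 76.5 CPM in control and 80.5, 79.7 and 75.1 CPM in KCl, where the groups overlapped (adjusted p = 0.77). The TPM of PSME1 plus PSME2 over that of PSME3 was 1.78, 1.87 and 1.63 in control and 1.90, 1.93 and 1.99 in KCl, higher in every KCl library (log2 difference 0.14, exact permutation p = 0.1, adjusted 0.1).

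PSME4, a single-chain activator, was at 108.7, 108.3 and 116.9 CPM in control and 107.0, 122.3 and 113.7 CPM in KCl. PSMF1, an inhibitor of the core, was at 159.4, 170.1 and 177.8 CPM in control and 163.9, 160.5 and 166.9 CPM in KCl. Neither passed the test (edgeR adjusted p = 0.587 and 0.451), and the groups overlapped in both.

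No chaperone of core assembly passed the test. PSMG1 and PSMG2 work as a pair: PSMG1 was at 100.6, 113.5 and 108.7 CPM in control and 109.8, 108.4 and 90.6 CPM in KCl. PSMG2 was at 83.2, 83.9 and 78.5 CPM in control and 87.6, 80.8 and 86.3 CPM in KCl. The groups overlapped in both, with edgeR adjusted p of 0.458 and 0.46. In the second pair, PSMG3 was at 30.9, 31.8 and 28.8 CPM in control and 29.97, 26.5 and 28.9 CPM in KCl (adjusted p = 0.297). PSMG4 was at 21.7, 23.5 and 21.5 CPM in control and 22.4, 23.8 and 25.3 CPM in KCl (adjusted p = 0.334). The recombination protein PSMC3IP had 64.2, 64.5 and 64.8 CPM in control and 68.3, 64.6 and 57.4 CPM in KCl, with an adjusted p of 0.781.

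Over the 36 members that did not pass, the 95% intervals of the log2 fold change lay between -0.29 and 0.37. Groups that did not overlap in CPM were seen in 5 members that were higher (10.6%) and 10 that were lower (21.3%), beside 24.5% and 23.3% of all genes tested. The separate groups included PSMB10 and PSME1 on the higher side and PSMB8, PSMC4, PSMD1 and PSMD8 on the lower side, which the test did not call. Summed over the 48 proteasome genes, the share of all reads was 0.543%, 0.570% and 0.548% in control and 0.532%, 0.516% and 0.510% in KCl, with no overlap. On TMM-scaled CPM the sums were 5317, 5582 and 5370 in control and 5456, 5247 and 5226 in KCl, and there the groups overlapped. A lower total for the family therefore depended on the scaling.

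**Figure D5:**
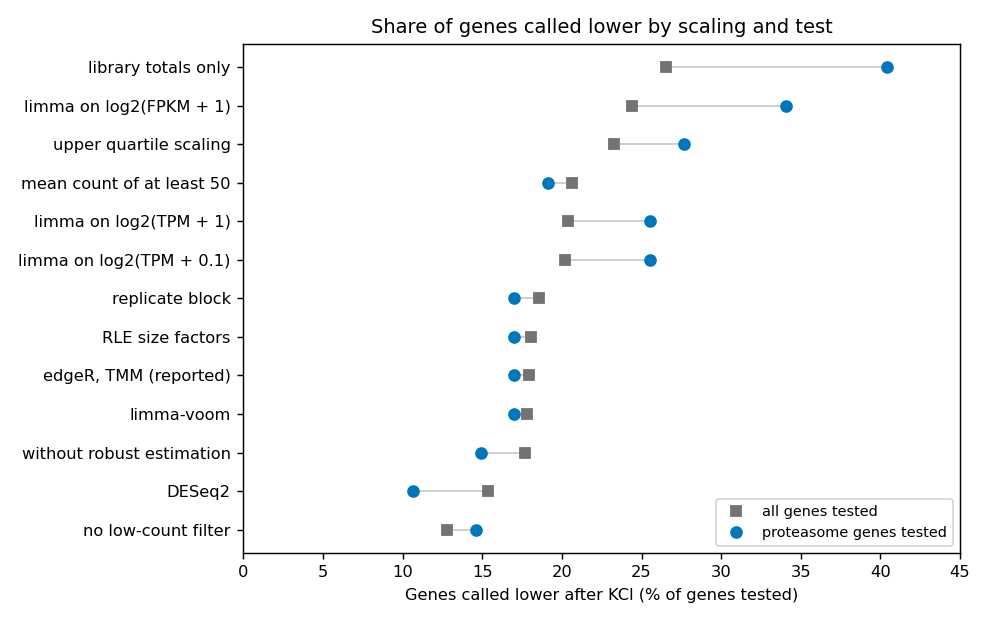
Share of genes called lower after KCl (percent of genes tested) for the proteasome genes (circles) and for all genes (squares), by scaling and test. As reported the shares are 17.02% and 17.95%, and with library totals they are 40.4% and 26.6%.

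Outside the PSM symbols, 12 proteasome partners were listed, of which 1 was higher and 5 lower (median log2 fold change -0.04, -0.005 over all genes). Over all genes tested the shares were 20.1% higher and 18.0% lower. UBE3C, a ubiquitin ligase bound to the cap, rose from 157.3 ± 9.3 to 191.4 ± 3.8 CPM (SD, n = 3; log2 fold change 0.28 ± 0.05, edgeR adjusted p = 2.23e-05). PITHD1, a relative of the proteasome-bound TXNL1, fell from 33.8 ± 1.3 to 25.6 ± 0.1 CPM (log2 fold change -0.40 ± 0.07, adjusted p = 5.76e-05). PAAF1, which binds the ATPases and keeps them from the core, fell from 11.01 ± 0.93 to 7.6 ± 0.1 CPM (log2 fold change -0.54 ± 0.11, adjusted p = 0.000589). These 3 changes were larger than that of any subunit and held in all alternatives. POMP, the maturation factor of the core, was at 74.7, 82.7 and 75.2 CPM in control and 86.5, 83.4 and 81.9 CPM in KCl, short of the threshold (adjusted p = 0.0932).

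The supply of ubiquitin moved in both directions. Of 6 ubiquitin and activating enzyme genes, 2 were higher and 1 lower (median 0.09), beside 20.1% and 18.0% of all genes tested. UBB, a polyubiquitin gene, fell from 857.5 ± 26.5 to 787.1 ± 11.5 CPM (log2 fold change -0.12 ± 0.04, adjusted p = 0.0114), a call lost without control replicate 2 or KCl replicate 3. UBA1, the main activating enzyme, was at 549.1 ± 16.2 in control and 586.7 ± 3.0 CPM in KCl, and its call (adjusted p = 0.0476) was lost under most alternatives (from 0.0322 to 0.52). Of 14 shuttle factor and unfoldase genes 2 were higher and 2 lower (median -0.03), near the shares over all genes. UBQLN4, a shuttle factor, fell (log2 fold change -0.23 ± 0.05, adjusted p = 0.000216) in all alternatives. ZFAND5, which binds the proteasome, and UFD1, a cofactor of the unfoldase VCP, were called higher (log2 fold changes 0.14 and 0.12, adjusted p = 0.023 and 0.0352), and both calls were lost when KCl replicate 1 or KCl replicate 3 was left out, among others.

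Genes that control proteasome transcription included larger changes than any subunit. Of 11 listed genes, 5 were higher and 2 lower (median 0.09), beside 20.1% and 18.0% of all genes tested. NFE2L1, the factor known to raise subunit genes when the proteasome fails, was at 523.4, 507.7 and 520.4 CPM in control and 452.2, 478.4 and 473.9 CPM in KCl. The groups were separate, and it fell by 0.14 on the log2 scale (log2 fold change -0.14 ± 0.04, edgeR adjusted p = 0.00434, from 0.000115 to 0.0375 over the alternatives). NGLY1, the enzyme that strips sugars from NFE2L1 to activate it, fell from 24.0 ± 0.8 to 17.2 ± 1.6 CPM (log2 fold change -0.48 ± 0.09, adjusted p = 6.75e-05). BACH1, a repressor at the sites these factors share, rose from 51.0 ± 3.9 to 90.0 ± 3.7 CPM (log2 fold change 0.82 ± 0.06, adjusted p = 4.3e-11). MAFK, a small MAF partner of these factors, rose from 41.4 ± 1.3 to 59.7 ± 3.0 CPM (log2 fold change 0.53 ± 0.06, adjusted p = 1.53e-07). NFE2L2, the related stress factor, was at 223.2, 216.4 and 230.0 CPM in control and 223.0, 245.5 and 242.1 CPM in KCl, short of the threshold (adjusted p = 0.127).

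These factors bind the antioxidant response element, whose core is TGACNNNGC, so the promoters of the members were searched for it. RefSeq promoter windows (GRCh38.p14; 250 bases before to 50 after the start) were found for 43 of the 49 members, in 53 windows. TGACNNNGC on either strand stood in 15 of the 53 windows (28.3%), against 13.35% of 35116 windows of all genes. CCAAT, the NF-Y box, stood in 41.5% of the members' windows and 34.6% of all, and no match of one motif overlapped the other. In the 250 upstream bases, 13 of the 43 members (30.23%) held TGACNNNGC, against 13.22% of all genes. Of these 13, 0 were called higher, 1, PSMB9, was called lower, and 12 were not called. Over all tested members 6.383% were higher and 17.02% lower, and 13 genes are too few to compare with these shares. A match is a description of letters and not a bound site. They are shown as the letter pattern that these 13 members share. Each is printed with its flanks on the strand that reads TGACNNNGC, with the motif in capitals, and PSMD9 has a pair.
PSME4: gctctgctggTGACGCTGCagccgccggg
PSMB9: ccgagacaagTGACGAGGCagccccgccc
PSMD5: tggctacagtTGACACGGCcctaacggag
PSMD9: cggcttccggTGACCCAGCtccgccctaa
PSMD9: gcgcctgtggTGACCCGGCaggagtagcg
PSME1: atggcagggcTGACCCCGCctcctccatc
PSME2: ccctggactgTGACCCAGCcagcaccgcc
PSMA4: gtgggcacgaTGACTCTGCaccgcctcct
PSMB3: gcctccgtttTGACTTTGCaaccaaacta
PSMD3: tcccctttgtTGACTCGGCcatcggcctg
PSMC5: agggcggcgcTGACACAGCagatccggtc
PSMD12: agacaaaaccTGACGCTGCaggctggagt
PSMG2: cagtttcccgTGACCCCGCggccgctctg
PSMG1: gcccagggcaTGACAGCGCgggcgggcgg

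The upstream stretches of 3 called genes show the range of what was found, from the motif to none. They are printed on the strand of the gene, without bases annotated as untranslated exon, with TGACNNNGC or its complement and CCAAT in capitals. PSMB5 (chr14:23035231-23035470, minus strand), which rose, holds CCAAT and no TGACNNNGC in this stretch. Another RefSeq window of PSMB5 (chr14:23034901-23035150), not printed, holds neither. PSMB9 (chr6:32853979-32854160, plus strand), which fell, holds TGACNNNGC on its minus strand. Its full upstream window also holds a CCAAT, which lies outside the printed stretch. PSMC6 (chr14:52706950-52707171, plus strand), which fell, holds neither in this stretch.
PSMB5: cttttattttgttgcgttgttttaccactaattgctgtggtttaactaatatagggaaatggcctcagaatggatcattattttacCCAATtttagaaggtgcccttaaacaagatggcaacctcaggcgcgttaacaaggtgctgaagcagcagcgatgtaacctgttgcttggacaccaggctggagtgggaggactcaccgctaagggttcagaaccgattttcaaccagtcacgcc
PSMB9: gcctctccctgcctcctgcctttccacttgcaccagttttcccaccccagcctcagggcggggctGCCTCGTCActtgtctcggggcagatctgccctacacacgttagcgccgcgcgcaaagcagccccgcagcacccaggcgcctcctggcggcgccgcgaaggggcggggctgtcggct
PSMC6: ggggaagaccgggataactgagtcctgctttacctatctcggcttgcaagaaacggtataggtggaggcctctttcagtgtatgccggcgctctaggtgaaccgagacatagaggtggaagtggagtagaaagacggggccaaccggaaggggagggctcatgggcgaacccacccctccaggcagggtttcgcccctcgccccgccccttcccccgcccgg

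PSMB9 starts close to TAP1, a chain of the peptide transporter, which is read from the other strand with its nearest start site 488 bases away in the RefSeq table. TAP1, named here after its values were seen, was at 73.5, 74.3 and 70.6 CPM in control and 65.9, 63.7 and 68.4 CPM in KCl. Like PSMB9 it was lower in every KCl library (log2 fold change -0.14 ± 0.05, edgeR adjusted p = 0.0372, from 0.00323 to 0.127 over the alternatives), and its call was lost with DESeq2 and when any of 4 libraries (control replicates 1 and 2, KCl replicates 1 and 2) was left out. Of 13 genes of class I peptide supply, 5 were higher and 3 lower (median 0.05), beside 20.1% and 18.0% of all genes tested. ERAP2 and ERAP1, which trim peptides in the endoplasmic reticulum, rose (log2 fold changes 0.42 ± 0.07 and 0.27 ± 0.06, adjusted p = 3.31e-05 and 0.00113).

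Peptides that leave the proteasome are cut further by cytosolic peptidases, of which 7 were listed, with 1 higher and 3 lower (median -0.17). Over all genes tested, 20.1% were higher and 18.0% lower. LAP3, a leucine aminopeptidase, was at 68.6, 66.4 and 61.2 CPM in control and 49.0, 47.2 and 44.5 CPM in KCl, with a wide gap between groups (log2 fold change -0.48 ± 0.06, edgeR adjusted p = 7.07e-07). PREP, a prolyl endopeptidase, fell from 51.5 ± 2.1 to 42.7 ± 1.2 CPM (log2 fold change -0.27 ± 0.06, adjusted p = 0.000926). DPP3, a dipeptidyl peptidase, fell from 50.9 ± 2.5 to 43.1 ± 2.2 CPM (log2 fold change -0.24 ± 0.06, adjusted p = 0.00388). All 3 calls held in every alternative.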

How the data were processed

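The authors deposited 1 gene table for the 6 libraries with estimated counts of reads per gene, not normalized, and with TPM and FPKM computed by the authors; each unit is per the file headers. Libraries were strand-specific mRNA per the labels' protocols. The submitters' processing notes name GRCh38.p12; for aligner and counter, a name is not given in the sources used here. From 11.3% to 11.9% of the deposited estimated counts were not whole and were rounded. Dates in place of 27 gene symbols were restored by gene ID. The members and lists were chosen with earlier results of these data known.

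Counts were scaled by TMM and filtered with filterByExpr (minimum count 10, total 15) in edgeR 4.0.16 (R 4.3.3), and KCl was tested against control by the two-sided robust quasi-likelihood test, with SE from the F value. The test, checked on data simulated for this comparison over 13044 genes, recovered the 200 genes changed (100%). All changes set in that simulation were larger than that of any member (at most 0.24 on the log2 scale). Recovery of changes as small as those of the members was therefore not checked. Alternatives were other scalings, filters, limma 3.58.1 on log2(TPM + 1), log2(TPM + 0.1) and log2(FPKM + 1), limma-voom, DESeq2 1.42.0, a replicate block and leaving out each library. A count of 0 allows 3 reads (95%), counting error only. Named genes are those that passed, the catalytic, activator, inhibitor and assembly genes, the ends of each role group by TPM, and up to 3 of each list by p, plus NFE2L1, NFE2L2 and POMP; some genes that this rule names are not reported here. In KCl replicate 2 the effective length implied by counts over FPKM exceeded the median of the other libraries for 44 of 47 members. The median difference was 16 bases, which touches the TPM and FPKM of that library.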

Additional observations from a re-analysis of the deposited data

How the results depend on the processing

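The scaling decided most. Against 3 higher and 8 lower members, upper quartile scaling gave 1 and 13, library totals 1 and 19, and limma 1 and 12 on log2(TPM + 1) and on log2(TPM + 0.1) and 1 and 16 on log2(FPKM + 1). DESeq2 gave 3 and 5. Leaving out 1 library gave 1 to 4 higher and 3 to 6 lower members, while 16.53% to 18.25% of all genes were higher and 14.21% to 16.28% lower. The replicate block gave 3 and 8, but not the same genes: PSMB9 lost its call (adjusted p = 0.0568) and PSMD8 gained one (0.0398), so the core had 2 lower genes and the cap 5. With the block 3 proteasome partners and 4 ubiquitin genes were higher, against 1 and 2. Over all genes the share called higher was 20.81% with the block, against 20.09%. The replicate numbers are not taken as pairs: libraries of the same number had deviations correlated at r = -0.004, -0.006 and 0.048, and not every library matched its own number best. The 4 TPM ratios kept their direction under every alternative run.

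Of the 47 members, 17 turned direction under at least 1 alternative, and none of these was called either in the reported test or where it turned. With library totals 7 turned: PSMB7 (-0.018), PSMD12 (-0.048), PSMD5 (-0.016), PSME4 (-0.022), PSMG2 (-0.010), PSMB3 (-0.012) and PSMD3 (-0.048). On log2(FPKM + 1) the same 7 turned: PSMB7 (-0.027), PSMD12 (-0.048), PSMD5 (-0.019), PSME4 (-0.036), PSMG2 (-0.018), PSMB3 (-0.023) and PSMD3 (-0.050). On both TPM scales 3 turned, PSMD12 (-0.021), PSME4 (-0.0080 and -0.0083) and PSMD3 (-0.021 and -0.022), and the same 3 with upper quartile scaling, PSMD12 (-0.028), PSME4 (-0.0026) and PSMD3 (-0.028). When libraries were left out in turn 14 members turned. For those named by the rule the values ran from -0.043 to 0.042 for PSMA7, -0.044 to 0.022 for PSMB6, -0.062 to 0.0084 for PSMD10, -0.0085 to 0.036 for PSMD12, -0.053 to 0.016 for PSME2, -0.012 to 0.084 for PSME4 and -0.11 to 0.020 for PSMG1, and the others were PSMA4, PSMB1, PSMB3, PSMC3IP, PSMD3, PSMD7 and PSMD13; the cause was not tested. The SE of a member's log2 fold change was 0.038 to 0.083, which limits what 3 libraries a group can show.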
